A study of Mus musculus with 12 samples.

Results

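The genes described here are the 39 members of the 4 mammalian Hox clusters, taken as every gene symbol of the form Hoxa, Hoxb, Hoxc or Hoxd followed by a number, out of 24411 symbols in the deposited expression table. Hox genes encode homeodomain transcription factors that give cells their position along the head-to-tail axis of the embryo. Within each cluster the genes lie on the chromosome in the order in which they act along the body, from low paralogue numbers, read anteriorly, to high ones, read posteriorly. Fibroblasts keep much of this Hox code in culture, and the posterior genes, Hoxa13 and Hoxd13 among them, are known for patterning the hindgut and its sphincters.

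RNA was sequenced from primary colonic myofibroblasts, contractile mesenchymal cells that lie beneath the colonic epithelium. They were grown out of the distal colon, near the anal end, of 16-week-old C57BL/6 mice. The 6 knockout libraries came from TNFR1-/- cells, which lack the type 1 receptor for tumor necrosis factor, and the 6 control libraries from heterozygous TNFR1+/- cells, which therefore also carry 1 null allele. All cells were untreated, at passage 6 to 8, and were taken from Matrigel on day 5. The labels say that only myofibroblasts divided 1 week after plating; they do not say which libraries came from separate mice or cultures, and the p-values therefore rest on the spread between libraries, part or all of which could be technical.

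Total counts per library were 6543006 to 9936996 in the knockout group and 11890737 to 16458674 in the control group, of which 2295 to 3189 in knockout and 3685 to 4751 in control libraries were Hox counts. The libraries formed 4 sets of like profiles, split within each genotype: in the knockout group libraries 1 to 4 and the pair 5 and 6, in the control group libraries 1 to 5 and the single library 6. Over the Hox genes alone, the chi-square per degree of freedom between a pair of libraries was 0.824 to 1.99 within a set, near counting noise, and 5.12 to 8.02 between sets of one genotype. Control 6 stood closer to knockout 1 to 4, with 2.53 to 5.88 over the Hox genes, than to control 1 to 5, with 6.63 to 7.89, and over all genes its Spearman correlation was 0.969 to 0.976 with knockout 1 to 4 and 0.953 to 0.955 with control 1 to 5. The ribosomal RNA precursor Rn45s took 7.01% and 8.25% of the counts in knockout 5 and 6, 1.63% to 2.10% in knockout 1 to 4 and 0.351% to 1.19% in control libraries. The targeted gene Tnfrsf1a averaged 44.1 ± 2.32 CPM (counts scaled to a common library size) in knockout and 74.7 ± 10.1 CPM in control libraries (SD, n = 6 each), with control 6 at 54.9 CPM. Its log2 difference, knockout minus control, was -0.76 (SE 0.10, edgeR adjusted p = 9.90e-05), and a count per gene cannot tell which exons of the targeted transcript were still read.

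The expressed Hox code of these cells was posterior in both genotypes. To compare genes with one another, CPM was divided by the length in kilobases of the longest coding transcript in a mouse annotation of GRCm38. On this scale, paralogues 9 to 13 made up 59.0% ± 2.11 of the summed Hox level in knockout and 58.7% ± 0.616 in control libraries (SD, n = 6 each). Paralogues 4 to 8 made up 27.9% ± 1.79 in knockout and 28.7% ± 0.385 in control libraries, and paralogues 1 to 3 made up 13.1% ± 0.646 in knockout and 12.6% ± 0.516. in control libraries The 3 stretches of the clusters thus took nearly the same shares in knockout and control cells, within the spread between libraries. The summed level of all Hox genes was 144 to 161 CPM per kb in knockout libraries and 125 to 135 CPM per kb in control libraries, and these ranges did not overlap. As unscaled CPM, the Hox sum was 310.5 to 350.8 in knockout and 288.7 to 309.9 in control libraries.

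The genes read most per kilobase of the longest coding transcript were the same 5 in both genotypes. Hoxa11, which patterns the limb, kidney and reproductive tract, stood at 19.0 ± 1.13 CPM per kb in knockout and 16.6 ± 0.551 CPM per kb in control libraries. Hoxa10, needed for the uterus and the lumbar skeleton, stood at 18.2 ± 1.97 CPM per kb in knockout and 10.8 ± 1.84 CPM per kb in control libraries. Hoxb9, which acts in the thoracic skeleton, stood at 12.1 ± 1.15 CPM per kb in knockout and 17.0 ± 2.79 CPM per kb in control libraries, Hoxd13 at 10.1 ± 2.41 CPM per kb in knockout and 10.0 ± 0.662 CPM per kb in control libraries, and the hindbrain gene Hoxb2 at 10.0 ± 1.69 CPM per kb in knockout and 7.76 ± 0.585 CPM per kb in control libraries (SD, n = 6 each). In knockout libraries the order was Hoxa11, Hoxa10, Hoxb9, Hoxd13 and Hoxb2, where Hoxa11 and Hoxa10, and likewise Hoxd13 and Hoxb2, lay within each other's spread. In control libraries the order was Hoxb9, Hoxa11, Hoxa10, Hoxd13 and Hoxb2, where Hoxb9 and Hoxa11, and likewise Hoxa10 and Hoxd13, lay within each other's spread. The per-kilobase level of some genes depends on the transcript model: Hoxb2 has 1628 bases in its longest coding transcript and 3488 in all its exons, and Hoxd11 has 1111 and 4212. Per kilobase of all exons Hoxb2 averaged 4.68 CPM in knockout and 3.62 CPM in control libraries and was not among the 5 highest genes; the fifth was then Hoxb7 in knockout, at 6.37 CPM, and Hoxd8 in control, at 6.80 CPM.

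**Figure D1:**
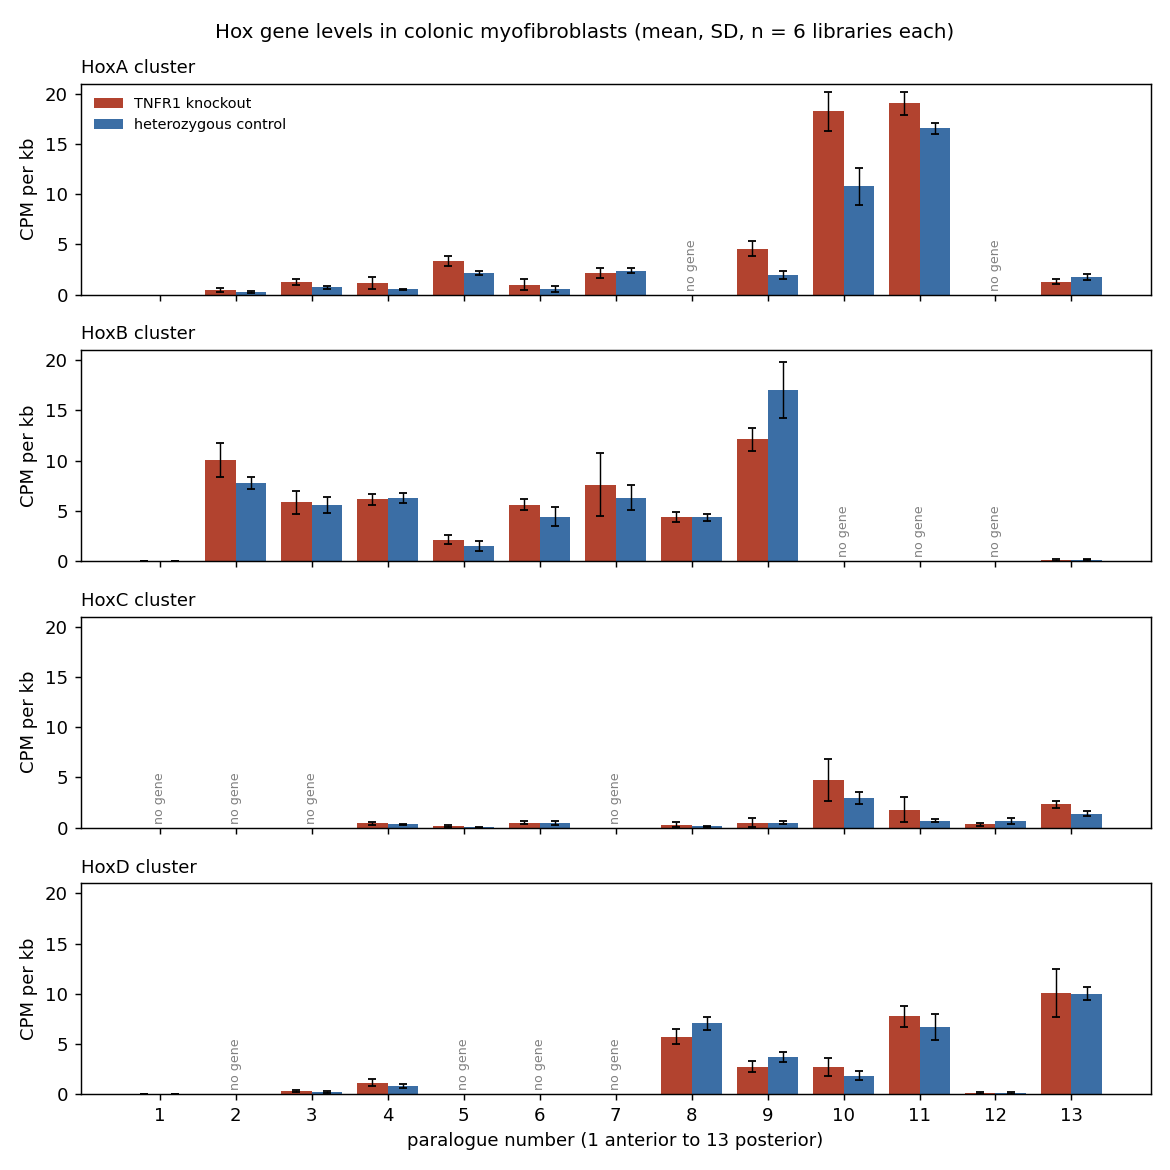
Level of 38 Hox genes in CPM per kb (vertical axis) by paralogue number (horizontal axis), 1 panel per cluster, as the mean of 6 TNFR1 knockout libraries (red) and 6 heterozygous control libraries (blue) with SD error bars. The high bars are Hoxa10, Hoxa11, Hoxb2, Hoxb9 and Hoxd13, and the HoxC genes stay under 5 CPM per kb on average.

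The clusters took different shares of this code. HoxA held 36.2% ± 1.61 of the summed level per kilobase in knockout and 30.3% ± 1.24 in control libraries, and HoxB held 36.1% ± 1.58 in knockout and 40.9% ± 1.61 in control libraries. HoxD held 20.4% ± 2.83 in knockout and 23.4% ± 0.876 in control libraries, and HoxC 7.36% ± 2.77 in knockout and 5.49% ± 0.367 in control libraries (SD, n = 6 each). HoxA was thus the cluster with a higher share in knockout cells that did not overlap between the groups, at 33.3% to 38.1% in knockout and 28.8% to 32.3% in control libraries. HoxC was high in 1 knockout set, with 10.9% on average in knockout 5 and 6, against 5.60% in knockout 1 to 4 and 5.53% in control 1 to 5. The summed level of HoxA averaged 54.2 CPM per kb in knockout and 39.6 CPM per kb in control libraries. That of HoxB averaged 54.1 and 53.4 CPM per kb, and that of HoxD 30.5 and 30.6 CPM per kb, in the same order. HoxC averaged 8.36 CPM per kb in knockout 1 to 4, 16.4 in knockout 5 and 6 and 7.17 in control libraries. HoxB and HoxD thus held lower average shares of a larger total, at nearly the same average summed levels.

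By paralogue number, group 10 held a higher share in knockout cells, and groups 8 and 9 held lower ones on average. Group 10 held 17.1% ± 0.847 of the summed level per kilobase in knockout and 11.9% ± 1.51 in control libraries. Group 8 held 6.93% ± 0.415 in knockout and 8.84% ± 0.525 in control libraries. Its shares did not overlap, at 6.30% to 7.40% in knockout and 7.78% to 9.19% in control libraries. The summed levels of group 8 did overlap, at 9.45 to 11.9 CPM per kb in knockout and 10.5 to 12.3 CPM per kb in control libraries. Group 9 held 13.3% ± 0.893 in knockout and 17.8% ± 2.47 in control libraries, but control 6 alone held 12.8%, inside the knockout range of 12.2% to 14.3%. Group 11 held 19.1% ± 1.01 in knockout and 18.3% ± 0.812 in control libraries, group 13 held 9.24% ± 1.72 in knockout and 10.1% ± 0.478 in control libraries, and group 12 held 0.272% ± 0.120 in knockout and 0.599% ± 0.229 in control libraries. As summed levels, group 10 averaged 25.6 CPM per kb in knockout and 15.6 CPM per kb in control libraries. Group 9 averaged 19.9 CPM per kb in knockout and 23.2 CPM per kb in control libraries, and group 13 averaged 13.8 and 13.3. These sums and shares are descriptions without a test.

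Of the 39 Hox genes, 27 had enough counts to be tested. In knockout cells 10 rose, 3 fell and 14 did not pass an adjusted p of 0.05, so 13 of 27 were called, beside 42.7% of all tested genes. The genes that rose were Hoxa3, Hoxa4, Hoxa5, Hoxa9, Hoxa10, Hoxa11, Hoxb2, Hoxc10, Hoxc11 and Hoxc13, and the genes that fell were Hoxb9, Hoxd8 and Hoxd9. The 10 that rose are 37.0% of those tested, beside 21.2% of all 12146 tested genes, and the 3 that fell are 11.1%, beside 21.5%. The median log2 difference of the 27 Hox genes was 0.27, and that of all tested genes was 0.02; 8 of the 27 lay below 0, beside 48.7% of all tested genes. In 5 Hox genes (18.5%) every knockout library lay above every control library, which held for 10.6% of all tested genes. In 0 Hox genes did every knockout library lie below every control library, which held for 12.5% of all tested genes. The tests were edgeR quasi-likelihood tests with Benjamini-Hochberg adjustment over all 12146 genes. In bulk samples, fewer cells of a type and less RNA per cell cannot be told apart.

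These counts moved with the library sets. Without knockout 5 and 6, 11 Hox genes were called higher and 3 lower, beside 24.5% and 27.5% of all tested genes. Without control 6 the counts were 14 and 3, beside 25.3% and 24.3%. Without knockout 5, knockout 6 and control 6 the counts were 15 and 4, beside 34.8% and 36.4%. With the counts of each set summed to 1 sample, which leaves 2 samples per genotype, edgeR called 0 Hox genes and 0 of all 13132 tested genes in either direction, while 2 Hox genes and 1038 of all genes had an unadjusted p under 0.05.

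**Figure D2:**
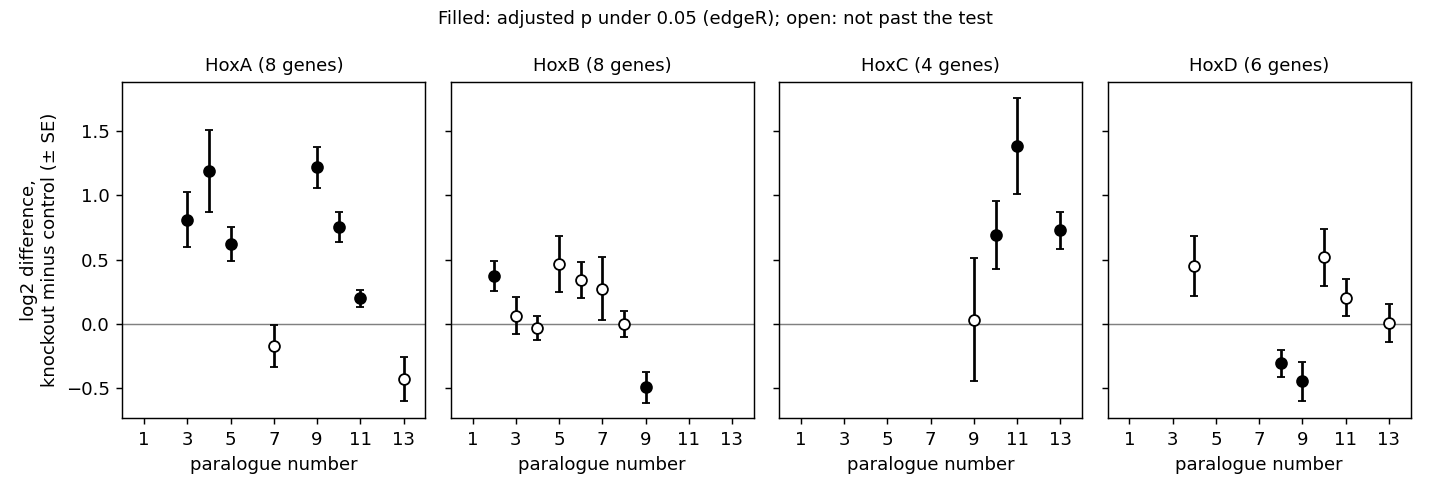
Fitted log2 difference, knockout minus control, with its standard error (vertical axis) for 26 tested Hox genes by paralogue number (horizontal axis), 1 panel per cluster. Filled points passed the edgeR test at an adjusted p of 0.05, and open points did not; 6 filled HoxA points and 3 filled HoxC points lie above 0, and both filled HoxD points lie below it.

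The HoxA cluster, on mouse chromosome 6, had 9 tested members, of which 6 rose and 0 fell by edgeR (1 was lower at an unadjusted p under 0.05). Of all tested genes, 21.2% were called higher and 21.5% lower. The 6 HoxA genes that rose formed an anterior block, Hoxa3, Hoxa4 and Hoxa5, and a posterior block, Hoxa9, Hoxa10 and Hoxa11. Hoxa9, known for its part in blood progenitors and in leukemia, had 11.2, 16.8, 15.2, 12.2, 16.3 and 16.5 CPM in knockout 1 to 6, against 6.87, 6.18, 5.00, 4.83, 6.61 and 8.39 CPM in control 1 to 6. All knockout libraries lay above all control libraries. The means were 14.7 ± 2.39 CPM in knockout and 6.31 ± 1.32 CPM in control libraries (SD, n = 6 each), and the log2 difference was 1.22 (SE 0.16, edgeR adjusted p = 0.000116), a 2.32-fold higher level in knockout cells. Its neighbour Hoxa10 had 45.9, 48.2, 54.1, 49.3, 39.2 and 44.0 CPM in knockout 1 to 6, against 24.7, 28.8, 23.5, 25.9, 26.8 and 36.6 CPM in control 1 to 6. The groups again did not overlap, although control 6 came close to knockout 5. The difference of Hoxa10 on the log2 scale was 0.75 (SE 0.12, edgeR adjusted p = 0.000333), or 1.69-fold. Hoxa11 had 44.4, 44.0, 47.0, 43.2, 39.0 and 43.7 CPM in knockout 1 to 6, against 36.5, 39.8, 36.5, 38.4, 38.0 and 38.1 CPM in control 1 to 6. Knockout 5 lay below control 2, and the other knockout libraries lay above all controls. The rise of Hoxa11 was small, with a log2 difference of 0.20 (SE 0.07, edgeR adjusted p = 0.0287), and was no longer past the test on library totals alone (0.14, edgeR adjusted p = 0.111). The call of Hoxa11 was also lost when knockout 1 or control 1, 3, 4 or 5 was left out (edgeR adjusted p = 0.0502 to 0.0688). Its antisense transcript Hoxa11os covers 35.0% of its exon bases and was at 17.0 ± 1.98 CPM in knockout and 16.4 ± 1.71 CPM in control libraries; without a known strand setting, reads of the pair cannot be told apart.

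The 250 bases before the starts of Hoxa9 and Hoxa10 are shown because these neighbours, both transcribed from the minus strand, had the smallest adjusted p of the Hox genes. They are given 5′ to 3′ from RefSeq sequences of GRCm38.p6, at chr6:52227371-52227620 for Hoxa9 and chr6:52234940-52235189 for the Hoxa10 start nearer to Hoxa9, 1 of 2 in the table. Capitals mark matches, on either strand, to 3 motifs. The first is TATAAA, the core of promoters that bind the TATA-binding protein. The second is the CCAAT box, searched as those letters, and the third is TGATNNAT, a site of the kind that Hox and Pbx proteins bind together.
Hoxa9: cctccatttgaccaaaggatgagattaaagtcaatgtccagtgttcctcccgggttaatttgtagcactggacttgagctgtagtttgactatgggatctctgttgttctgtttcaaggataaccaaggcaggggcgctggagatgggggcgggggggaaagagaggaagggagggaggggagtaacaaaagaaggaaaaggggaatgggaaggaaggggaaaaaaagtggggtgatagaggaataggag
Hoxa10: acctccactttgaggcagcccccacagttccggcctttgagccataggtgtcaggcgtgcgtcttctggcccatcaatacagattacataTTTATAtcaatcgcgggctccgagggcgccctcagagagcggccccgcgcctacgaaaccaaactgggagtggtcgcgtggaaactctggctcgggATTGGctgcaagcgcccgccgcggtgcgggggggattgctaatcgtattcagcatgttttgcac
Hoxa9 had no match to any of these letters. Hoxa10 had a TATA box on the other strand, from base -160 to -155 relative to the start, and a CCAAT box on the other strand, from -64 to -60. RefSeq windows of 300 bases (250 before and 50 after a start) were found for 22 of the 39 Hox genes, 24 windows in all. A CCAAT box was in 62.5% of the Hox windows and 37.4% of all 32817 windows, a TATA box in 16.7% of the Hox windows and 13.6% of all, and a Hox-Pbx site in 16.7% of the Hox windows and 8.86% of all. Hox windows held a median of 14.5 CG dinucleotides, and all windows a median of 7.0; the Hoxa9 window held 4 and this Hoxa10 window 21. A match of letters is not a binding site, and a window without one says nothing of the factor.

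The anterior HoxA genes were read at low levels. Hoxa5, which acts in lung, stomach and cervical development, had 5.13, 7.31, 6.33, 6.49, 7.37 and 5.38 CPM in knockout 1 to 6, against 4.09, 3.69, 4.28, 4.13, 3.75 and 4.71 CPM in control 1 to 6. All knockout libraries lay above all controls, with a log2 difference of 0.62 (SE 0.13, edgeR adjusted p = 0.0022). Hoxa3, required for the thymus and parathyroid, had 2.20, 2.44, 3.32, 3.19, 4.25 and 3.93 CPM in knockout 1 to 6, against 2.56, 1.28, 1.52, 1.82, 2.12 and 1.72 CPM in control 1 to 6. Knockout 1 and 2 lay below control 1, and the log2 difference was 0.81 (SE 0.22, edgeR adjusted p = 0.0093). Hoxa4, whose transgenic overexpression gives mice a megacolon, had 0.942, 1.15, 1.90, 1.17, 2.59 and 3.31 CPM in knockout 1 to 6, against 0.804, 0.979, 0.943, 0.700, 0.653 and 0.763 CPM in control 1 to 6. Knockout 1 lay within the control range and the other knockout libraries above it. Hoxa4 had a log2 difference of 1.19 (SE 0.32, edgeR adjusted p = 0.0092), which without knockout 5 and 6 was 0.63 (edgeR adjusted p = 0.0617). Hoxa4 reached the count filter in 5 knockout and 2 control libraries. Neither the axial skeleton gene Hoxa7 (log2 difference -0.17) nor Hoxa13 passed (-0.43, edgeR adjusted p = 0.0568). Hoxa13, which patterns the hindgut and the digits, had a median of 3.31 CPM (2.28 to 3.64) in knockout and 4.40 CPM (2.85 to 4.83) in control libraries.

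The HoxB cluster, on chromosome 11, had 8 tested members, of which Hoxb2 rose and Hoxb9 fell, beside 21.2% and 21.5% of all tested genes. Hoxb2 had 15.2, 14.6, 16.5, 13.5, 21.4 and 16.9 CPM in knockout 1 to 6, against 13.4, 11.8, 12.035, 11.5, 13.6 and 13.4 CPM in control 1 to 6. Knockout 4 lay within the control range and the other knockout libraries above it. Hoxb2 had a log2 difference of 0.37 (SE 0.11, edgeR adjusted p = 0.0198), and it was not past the test on library totals alone (0.32, edgeR adjusted p = 0.0579). The antisense transcript Hoxb3os covers 58.5% of its exon bases. Hoxb9 had 30.4, 34.3, 35.3, 29.7, 30.2 and 27.4 CPM in knockout 1 to 6, against 46.8, 47.3, 44.2, 47.6, 47.9 and 29.4 CPM in control 1 to 6. Control 1 to 5 lay above all knockout libraries, while control 6 lay among them. The means of Hoxb9 were 31.2 ± 2.97 CPM in knockout and 43.9 ± 7.19 CPM in control libraries (SD, n = 6 each), with a log2 difference of -0.49 (SE 0.12, edgeR adjusted p = 0.0062), a 1.41-fold lower level in knockout cells.

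4 further HoxB genes averaged at least 10 CPM in 1 or both genotypes and did not pass the test. Hoxb3, a hindbrain and neural crest gene, had 21.3, 20.7, 21.7, 20.5, 14.0 and 14.2 CPM in knockout 1 to 6, against 17.3, 18.3, 16.6, 15.7, 16.4 and 22.8 CPM in control 1 to 6. Knockout 5 and 6 lay below all controls, and knockout 1 to 4 lay above control 1 to 5. Its log2 difference was 0.07 (edgeR adjusted p = 0.734), and Hoxb3os covers 70.5% of its exon bases. Without knockout 5, knockout 6 and control 6 the log2 difference of Hoxb3 was 0.32 (edgeR adjusted p = 0.000428). Hoxb4, known for the expansion of blood stem cells, had 16.2, 15.8, 17.9, 15.9, 15.7 and 13.6 CPM in knockout 1 to 6, against 14.5, 15.1, 15.7, 16.0, 17.5 and 17.9 CPM in control 1 to 6. The groups overlapped almost fully, with a log2 difference of -0.03 (edgeR adjusted p = 0.815). Hoxb6, a gene of the lateral plate mesoderm, had 10.0, 9.50, 11.2, 11.9, 11.5 and 12.1 CPM in knockout 1 to 6, against 7.38, 9.04, 7.11, 8.96, 7.59 and 12.1 CPM in control 1 to 6. All knockout libraries of Hoxb6 lay above control 1 to 5, and control 6 lay among the knockout libraries (log2 difference 0.35, edgeR adjusted p = 0.062). Without control 6 the log2 difference of Hoxb6 was 0.47 (edgeR adjusted p = 0.00368). Hoxb8, which acts in myeloid progenitors and the spinal cord, had 11.1, 10.5, 13.4, 12.5, 9.96 and 11.5 CPM in knockout 1 to 6, against 12.2, 11.3, 10.0, 11.1, 12.2 and 12.1 CPM in control 1 to 6. Its groups overlapped, with a log2 difference of 0.00 (SE 0.10). Of the remaining HoxB genes, Hoxb5, known in the enteric nervous system, had a median of 4.09 CPM (2.80 to 5.06) in knockout and 2.76 CPM (2.03 to 4.58) in control libraries. Hoxb7, read in the ureteric bud, had a median of 8.07 CPM (6.42 to 15.3) in knockout and 8.74 CPM (5.60 to 9.55) in control libraries, and its 2 highest values were those of knockout 5 and 6.

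The HoxC cluster, on chromosome 15, had 4 tested members, of which Hoxc10, Hoxc11 and Hoxc13 rose and Hoxc9 did not pass. Among all tested genes 21.2% rose. Hoxc13, required for hair and nails, had 5.65, 4.62, 6.49, 5.00, 6.54 and 6.11 CPM in knockout 1 to 6, against 3.95, 3.61, 3.12, 4.20, 2.86 and 2.99 CPM in control 1 to 6. All knockout libraries lay above all controls, with a log2 difference of 0.73 (SE 0.15, edgeR adjusted p = 0.00167). Hoxc11, a gene of the hindlimb and sacral region, had 2.41, 2.18, 1.74, 2.02, 6.54 and 7.04 CPM in knockout 1 to 6, against 1.61, 1.73, 1.23, 1.61, 1.14 and 1.14 CPM in control 1 to 6. The groups did not overlap, but knockout 5 and 6 lay far above the rest. Its log2 difference of 1.38 (SE 0.37, edgeR adjusted p = 0.0101) was 0.52 without knockout 5, knockout 6 and control 6 (edgeR adjusted p = 0.0319). Hoxc10, known in lumbar motor neurons, had 5.02, 8.21, 6.33, 6.60, 12.9 and 14.9 CPM in knockout 1 to 6, against 4.68, 7.30, 4.35, 4.90, 6.04 and 6.23 CPM in control 1 to 6. Knockout 1 to 4 overlapped with the controls, and knockout 5 and 6 lay above them. The log2 difference of Hoxc10 was 0.69 (SE 0.26, edgeR adjusted p = 0.0484) and was 0.22 (edgeR adjusted p = 0.314) without knockout 5 and 6. The call of Hoxc10 was lost when knockout 2, 5 or 6 or control 1, 3, 4, 5 or 6 was left out (edgeR adjusted p = 0.0518 to 0.113). Hoxc9, a thoracic gene, was at 0.314 to 2.49 CPM in knockout and 0.700 to 1.74 CPM in control libraries, and its highest values too were those of knockout 5 and 6. The share of Rn45s was highest in the same pair of libraries. Fitted without Rn45s, edgeR again called 10 Hox genes higher and 3 lower, with Hoxc10 at 0.69 (adjusted p = 0.0481) and Hoxc11 at 1.38 (adjusted p = 0.00995). Leaving out this gene keeps the counts of all other genes, so the fit cannot show what else differs in knockout 5 and 6. The cause of their higher HoxC levels was not tested.

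The HoxD cluster, on chromosome 2, had 6 tested members, of which 0 rose by edgeR (1 was higher at an unadjusted p under 0.05) and the neighbours Hoxd8 and Hoxd9 fell. Among all tested genes 21.2% rose and 21.5% fell. Hoxd8, read in the trunk, had 15.8, 16.9, 17.4, 13.7, 14.2 and 12.7 CPM in knockout 1 to 6, against 18.4, 20.0, 19.4, 19.2, 19.7 and 15.3 CPM in control 1 to 6. Control 1 to 5 lay above all knockout libraries, and control 6 lay among them. The log2 difference of Hoxd8 was -0.30 (SE 0.10, edgeR adjusted p = 0.0315). Hoxd9, which acts with its paralogues in the lumbar region and hindlimb, had 5.13, 4.88, 6.17, 4.58, 7.68 and 6.52 CPM in knockout 1 to 6, against 8.33, 7.15, 8.92, 8.33, 8.65 and 6.23 CPM in control 1 to 6. Here knockout 5 and 6 overlapped with the controls, and so did control 6 with the knockout libraries. The log2 difference of Hoxd9 was -0.44 (SE 0.15, edgeR adjusted p = 0.0299). The call of Hoxd8 was lost when knockout 4, 5 or 6 or any of control 1 to 5 was left out (edgeR adjusted p = 0.0532 to 0.0688). The call of Hoxd9 was lost when knockout 1, 2 or 4 or control 1, 3, 4 or 5 was left out (edgeR adjusted p = 0.0586 to 0.0670).

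Hoxd13, the most posterior HoxD gene and the one best known in the anal sphincter, had 29.4, 25.7, 30.5, 29.3, 18.4 and 16.9 CPM in knockout 1 to 6, against 24.1, 22.4, 25.2, 24.5, 25.5 and 27.4 CPM in control 1 to 6. Knockout 1 to 4 lay above control 1 to 5, and knockout 5 and 6 lay below all controls. The log2 difference of Hoxd13 was 0.01 (SE 0.15, edgeR adjusted p = 0.975), and without knockout 5 and 6 it was 0.21 (edgeR adjusted p = 0.0347). Hoxd4, Hoxd10 and Hoxd11 had log2 differences of 0.45, 0.52 and 0.21, with edgeR adjusted p of 0.135, 0.0747 and 0.268. Hoxd10, known in lumbar motor neurons, had a median of 4.53 CPM (3.32 to 7.75) in knockout and 3.31 CPM (2.56 to 4.24) in control libraries. Hoxd11, which patterns the forearm together with Hoxa11, had a median of 8.95 CPM (6.54 to 9.79) in knockout and 7.23 CPM (5.87 to 10.1) in control libraries.

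The 250 bases before the starts of Hoxd8 and Hoxd9 are shown as the pair of neighbours that fell, against the Hoxa9 and Hoxa10 pair that rose. Both lie on the plus strand, at chr2:74704365-74704614 for Hoxd8 and chr2:74697513-74697762 for Hoxd9 in GRCm38.p6 (RefSeq), and capitals mark the same motifs as above.
Hoxd8: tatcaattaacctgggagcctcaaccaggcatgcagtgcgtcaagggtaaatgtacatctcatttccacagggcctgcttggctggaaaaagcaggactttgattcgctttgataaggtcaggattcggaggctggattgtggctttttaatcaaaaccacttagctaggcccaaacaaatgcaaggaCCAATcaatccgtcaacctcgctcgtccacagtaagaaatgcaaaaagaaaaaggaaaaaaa
Hoxd9: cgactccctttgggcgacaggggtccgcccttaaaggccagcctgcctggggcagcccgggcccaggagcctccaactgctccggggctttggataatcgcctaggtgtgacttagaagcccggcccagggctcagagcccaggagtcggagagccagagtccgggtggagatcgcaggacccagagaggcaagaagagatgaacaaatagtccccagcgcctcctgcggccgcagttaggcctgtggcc
Hoxd8 had a CCAAT box from base -62 to -58 relative to the start, at nearly the distance of the CCAAT box in Hoxa10. Hoxd9 had no match. The paralogues Hoxa9 and Hoxd9, which changed in opposite directions, had 4 and 20 CG dinucleotides in their 300-base windows, and 49.7% and 68.3% G or C. The other pair went the other way: Hoxa10, which rose, had 21 and 57.3%, and Hoxd8, which fell, had 6 and 46.7%.

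**Figure D3:**
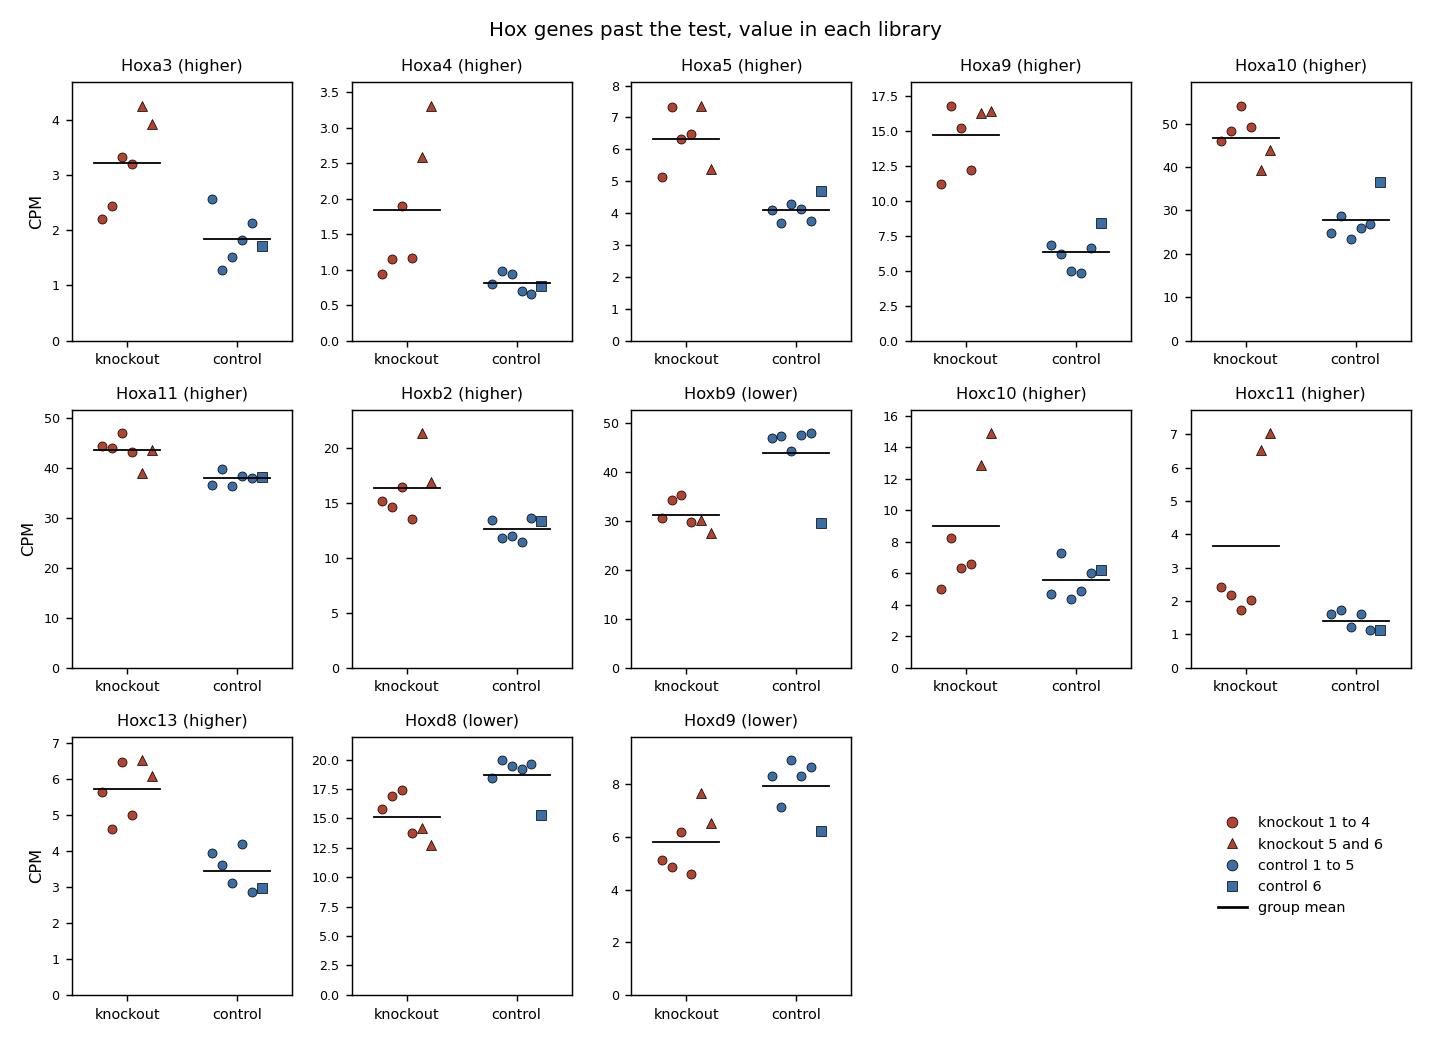
Level in CPM (vertical axis) of the 13 Hox genes past the test in each knockout (red, left) and control (blue, right) library, with the group mean as a line; symbols mark the 4 sets of like libraries. Knockout 5 and 6 (triangles) stand apart in Hoxa4, Hoxc10 and Hoxc11, and control 6 (square) lies among the knockout libraries in Hoxb9, Hoxd8 and Hoxd9.

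Set by paralogue number, the changes did not follow one direction along the axis. In group 9, Hoxa9 rose, Hoxb9 and Hoxd9 fell and Hoxc9 did not pass. In group 10, Hoxa10 and Hoxc10 rose and Hoxd10 did not pass, and in group 11, Hoxa11 and Hoxc11 rose and Hoxd11 did not pass. In group 13, Hoxc13 rose, and neither Hoxa13 nor Hoxd13 passed. Of the 13 tested members with paralogue numbers 9 to 13, 6 rose and 2 fell, and of the 14 with numbers 1 to 8, 4 rose and 1 fell. By cluster, HoxA and HoxC, with 9 and 4 of the 27 tested genes, held 9 of the 10 genes that rose. HoxB and HoxD, with 8 and 6 tested genes, held all 3 that fell. Of all tested genes, 21.2% rose and 21.5% fell. The calls of Hoxa4 and Hoxc10 were lost without knockout 5 and 6, and the 3 that fell did not keep their direction in every comparison with control 6.

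The 10 genes that rose did so whichever knockout set was compared with whichever control set (4 contrasts), and the 3 that fell did not. Of all genes called higher, 76.8% kept their direction in all 4 contrasts, and of all genes called lower, 75.4% did. These contrasts share their sets with one another. Hoxa9 differed by 1.20 and 0.69 (log2 of summed counts) between knockout 1 to 4 and control 1 to 5 or control 6, and by 1.46 and 0.95 between knockout 5 and 6 and the same controls. Hoxa10 differed by 0.92, 0.42, 0.68 and 0.17 in the same order. Both genes were higher in every contrast, and less so against control 6 than against control 1 to 5. Hoxb9 differed by -0.54 and -0.70 between the knockout sets and control 1 to 5, and by 0.12 and -0.04 against control 6. The lower level of Hoxb9 was thus found against control 1 to 5 and not against control 6. Over all 27 tested Hox genes the median was 0.25, 0.06, 0.26 and 0.11, and over all tested genes it was -0.01, 0.01, -0.02 and -0.02.

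**Figure D4:**
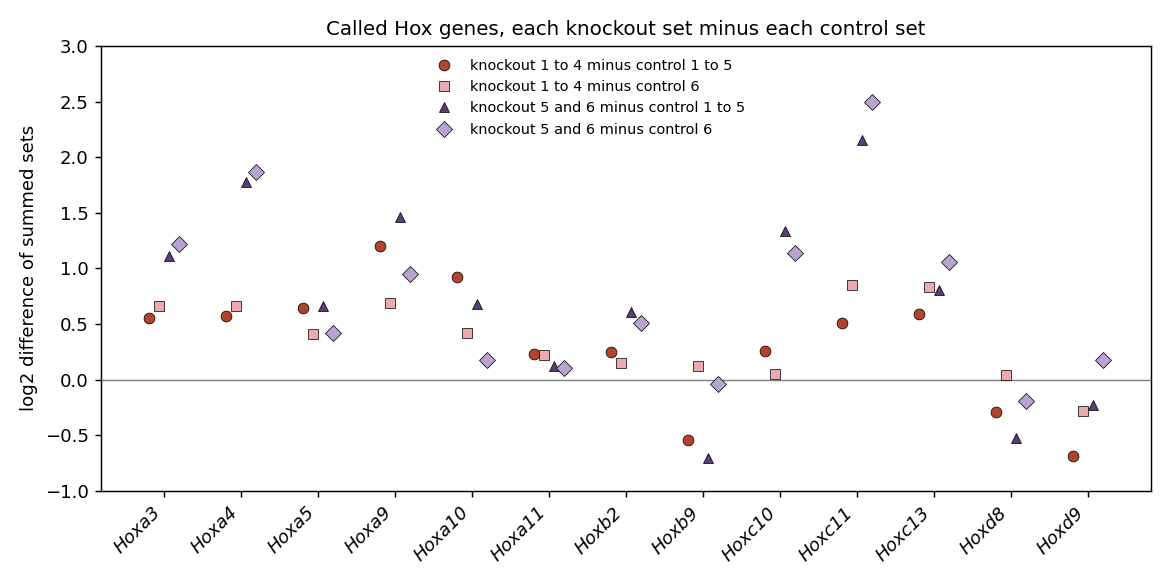
Log2 difference of summed, scaled counts (vertical axis) for the 13 called Hox genes (horizontal axis) in each of the 4 differences between sets, knockout minus control, 1 symbol per difference. The 10 genes called higher have all 4 symbols above 0, while Hoxb9, Hoxd8 and Hoxd9 have symbols on both sides of it.

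12 Hox genes were not tested because their counts were too low, with at most 17 counts in any library. They were Hoxa2, Hoxa6, Hoxb1, Hoxb13, Hoxc4, Hoxc5, Hoxc6, Hoxc8, Hoxc12, Hoxd1, Hoxd3 and Hoxd12, at no more than 1.66 CPM in any knockout and 1.23 CPM in any control library. Hoxb1, a gene of the hindbrain, had 0 counts in all 12 libraries; 3 counts, the upper limit that a count of 0 allows for counting error, correspond to 0.310 to 0.475 CPM in knockout and 0.191 to 0.245 CPM in control libraries. Hoxd1 had 0 counts in the 6 knockout libraries and at most 0.140 CPM in control libraries. Hoxb13, a marker of the prostate and the distal hindgut, was at 0 to 0.623 CPM in knockout and 0.145 to 0.377 CPM in control libraries. Of the 27 tested genes, 25 reached the filter of 0.916 CPM in every library. Hoxa4 and Hoxc9 reached it in part.

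Hox proteins bind DNA together with TALE homeodomain cofactors, the Pbx, Meis and Pknox proteins. Of 9 tested, 0 rose and 3 fell by edgeR, beside 21.2% and 21.5% of all genes; at an unadjusted p under 0.05, in DESeq2 and in limma-voom, 0 were higher and 4 lower, and the median log2 difference was -0.24. Pknox2 was at 11.5 ± 2.75 CPM in knockout and 21.7 ± 1.84 CPM in control libraries, without overlap (log2 difference -0.92, edgeR adjusted p = 0.000444). Pbx4 was at 0.669 ± 0.247 CPM in knockout and 1.70 ± 0.207 CPM in control libraries (-1.30, edgeR adjusted p = 0.000761), and Meis3 at 18.0 ± 1.88 CPM in knockout and 22.0 ± 2.05 CPM in control libraries (-0.30, edgeR adjusted p = 0.0234). Meis2, a cofactor that did not pass, had 88.4 ± 29.2 CPM in knockout and 127.2 ± 10.0 CPM in control libraries (edgeR adjusted p = 0.0509).

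Retinoic acid, made from vitamin A, is a known inducer of anterior Hox genes. Of 18 listed genes of its pathway 13 were tested, of which 2 rose and 8 fell, beside 21.2% and 21.5% of all genes, with a median log2 difference of -0.49. Rarb, a receptor that is itself a retinoic acid target, was at 1.96 ± 0.237 CPM in knockout and 6.59 ± 1.33 CPM in control libraries (log2 difference -1.75, edgeR adjusted p = 2.3e-05). Crabp2, which carries retinoic acid to the nucleus, was at 2.41 ± 1.04 CPM in knockout and 23.6 ± 8.43 CPM in control libraries (-3.30, edgeR adjusted p = 6.4e-05). All 6 knockout libraries lay below all 6 controls for Rarb and for Crabp2. Control 6 was the lowest control for both, at 3.94 CPM for Rarb and 6.42 CPM for Crabp2. The genes that rose were Aldh1a3 and Rdh10, enzymes of retinoic acid synthesis, and both were highest in knockout 5 and 6. Aldh1a3 was at 10.6 and 10.7 CPM in knockout 5 and 6, 2.21 to 3.77 CPM in knockout 1 to 4 and 0.700 to 1.59 CPM in control libraries. Rdh10 was at 24.9 and 22.8 CPM in knockout 5 and 6 and at 10.9 to 12.9 CPM in knockout 1 to 4, which overlapped with 7.42 to 11.7 CPM in control libraries. Aldh1a1, a further enzyme of the list, was low in knockout 5 and 6 and did not pass (edgeR adjusted p = 0.0527). It was at 4.15 and 3.62 CPM in knockout 5 and 6 and 29.6 to 36.4 CPM in knockout 1 to 4. In control libraries Aldh1a1 was at 4.13 to 5.87 CPM in control 1 to 5 and 20.9 CPM in control 6.

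Polycomb proteins keep Hox genes silent, and the MLL (Kmt2) complexes and the H3K27 demethylases oppose them. Of 22 Polycomb genes, all tested, 7 rose and 6 fell, beside 21.2% and 21.5% of all genes, with a median log2 difference of 0.18. Rbbp7 rose to 272.6 ± 37.4 CPM in knockout, against 179.5 ± 4.71 CPM in control libraries (log2 difference 0.60, edgeR adjusted p = 0.000329). Pcgf2, a subunit of Polycomb complex 1, was at 23.6 ± 3.33 CPM in knockout and 41.0 ± 6.48 CPM in control libraries (-0.80, edgeR adjusted p = 0.000467), and its partner Ring1 at 17.4 ± 1.68 CPM in knockout and 24.2 ± 0.583 CPM in control libraries (-0.47, edgeR adjusted p = 0.000599). Pcgf2 was at 28.5 CPM in control 6, inside the knockout range. Of 12 tested MLL and demethylase genes, 4 rose and 2 fell, beside the same shares of all genes, with a median of 0.28. The demethylase Kdm6a was at 14.5 ± 1.83 CPM in knockout and 24.9 ± 5.97 CPM in control libraries (-0.78, edgeR adjusted p = 0.00368). Control 6, at 13.037 CPM of Kdm6a, lay inside the knockout range of 11.2 to 16.0 CPM, and control 1 to 5 lay at 24.4 to 28.6 CPM. The methyltransferases Kmt2a, at 82.4 ± 15.7 CPM in knockout and 57.6 ± 8.33 CPM in control libraries (0.52, edgeR adjusted p = 0.00874), and Kmt2d, at 90.0 ± 23.6 CPM in knockout and 62.4 ± 6.18 CPM in control libraries (0.53, edgeR adjusted p = 0.0182), rose. Knockout 3 lay among the control libraries for Kmt2a and below them for Kmt2d.

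Transcripts from within and beside the clusters were read as well. Of 18 noncoding RNAs of the Hox clusters in the table, 4 were tested, and 0 rose or fell by edgeR, while 1 was higher and 0 lower at an unadjusted p under 0.05, in DESeq2 and in limma-voom; they were Hoxa11os, Hoxb5os, Hotairm1 and Gm53. Of 23 tested genes that flank the clusters, 6 rose and 5 fell, beside 21.2% and 21.5% of all genes, with a median of -0.01. The RNA-binding gene Igf2bp1, beside HoxB, was at 29.8 ± 5.92 CPM in knockout and 11.4 ± 4.46 CPM in control libraries (log2 difference 1.39, edgeR adjusted p = 0.00034). Lnp, beside HoxD, was at 45.6 ± 3.57 CPM in knockout and 34.5 ± 1.10 CPM in control libraries (0.40, edgeR adjusted p = 0.000823), and Cbx5, which encodes the heterochromatin protein HP1 alpha and lies beside HoxC, at 125.4 ± 41.9 CPM in knockout and 70.6 ± 2.57 CPM in control libraries (0.83, edgeR adjusted p = 0.00275). All 8 ParaHox and Evx genes went untested, with at most 9 counts in any library; Cdx1, Cdx2, Cdx4, Gsx2, Pdx1 and Evx1 had 0 counts in all 12.

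Of 27 tested transcription factors that mark other regions of the mesenchyme, 6 rose and 8 fell, beside 21.2% and 21.5% of all genes, with a median log2 difference of -0.29. Hic1, a repressor found in mesenchymal progenitors, was at 67.9 ± 12.1 CPM in knockout and 129.7 ± 15.2 CPM in control libraries (log2 difference -0.93, edgeR adjusted p = 0.000124). Osr2, known in limb joints and the palate, was at 1.24 ± 0.703 CPM in knockout and 4.66 ± 1.12 CPM in control libraries (-1.90, edgeR adjusted p = 0.000582), and Tcf21, a factor of visceral mesoderm, at 2.37 ± 0.828 CPM in knockout and 4.91 ± 0.676 CPM in control libraries (-1.07, edgeR adjusted p = 0.00163). Foxf1, the factor of gut mesenchyme, was at 55.7 ± 3.63 CPM in knockout and 51.0 ± 2.72 CPM in control libraries and did not pass (edgeR adjusted p = 0.156).

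The markers of the labelled cell type were present. All 11 myofibroblast and fibroblast markers were tested; 3 rose, among them Acta2 and Tagln, and Pdgfra, Col3a1, Lum and Dcn fell, beside 21.2% and 21.5% of all genes. Acta2 overlapped between the groups and differed by library set. It stood at 5971 to 6647 CPM in knockout 1 to 4 and at 2848 and 2788 CPM in knockout 5 and 6. In control libraries Acta2 was at 1460 to 1609 CPM in control 1 to 5 and 3278 CPM in control 6. The collagen gene Col1a1 did not pass and stood at 1993 and 2102 CPM in knockout 5 and 6, 10467 to 11420 CPM in knockout 1 to 4 and 8073 to 13267 CPM in control libraries. The summed level of 12 epithelial markers was 5.52 to 10.2 CPM in knockout and 1.10 to 9.54 CPM in control libraries, and only Krt20 among them was tested and did not pass. Epcam and Cdh1, which define epithelium, had at most 1 count in any library, while Krt20 was at 4.14 to 5.96 CPM in knockout libraries, 0.585 to 0.979 CPM in control 1 to 5 and 7.38 CPM in control 6. The 7 skeletal muscle markers summed to 70.8 to 240.9 CPM in knockout and 58.9 to 186.5 CPM in control libraries. Myf5 and Pax7 had 0 counts, Des did not pass, and Acta1 rose to 98.1 ± 60.8 CPM in knockout, against 27.4 ± 25.0 CPM in control libraries (log2 difference 1.83, edgeR adjusted p = 0.0265). Acta1 was at 19.5 and 19.9 CPM in knockout 5 and 6 and at 78.5 CPM in control 6. Of 5 keratinocyte markers Krt5, Krt14 and Krt1 had 0 counts and Krt10 did not pass; the sum was 1.28 to 3.31 CPM in knockout and 0.950 to 1.72 CPM in control libraries. Of 6 endothelial markers, 2 were tested, and Tek fell, beside 21.5% of all genes. The other tested one did not pass but was higher in knockout at an unadjusted p under 0.05 by edgeR. The endothelial sum was 5.28 to 9.62 CPM in knockout and 6.85 to 11.1 CPM in control libraries. Of 6 glial and neuronal markers, 3 were tested, Uchl1 rose and Sox10 fell, and the sum was 22.1 to 34.2 CPM in knockout and 14.6 to 18.0 CPM in control libraries. Of 9 tested macrophage and leukocyte markers, 0 rose and 6 fell by edgeR, beside 21.2% and 21.5% of all genes (0 higher and 7 lower at an unadjusted p under 0.05). Ptprc, Csf1r and Cd14 did not pass. The summed level of the 10 in the table was 38.5 to 57.2 CPM in knockout and 78.0 to 128 CPM in control libraries. Lyz2 made up most of this sum, at 27.3 to 36.9 CPM in knockout and 49.2 to 93.2 CPM in control libraries. The part of these cell types in the Hox differences was not tested.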

How the data were processed

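Per the labels' protocols, RNA was captured on oligo-dT beads and the libraries kept strand information through dUTP in the second strand. The deposited values are expected counts per gene symbol, estimated reads that need not be whole. The submitters' processing notes give RSEM 1.2.15 and Bowtie2 2.1.0, and also a human build although the symbols are those of mouse; annotation release and strand handling were both not given in the sources used here. Expected counts were rounded to whole numbers, and genotype and library number were taken from the sample titles.

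Knockout was compared with control across the 12 libraries with edgeR 4.0.16, quasi-likelihood test (robust, genotype as the only term) in R 4.3.3, with trimmed mean of M-values scaling, filterByExpr (minimum count 10, minimum total 15) and Benjamini-Hochberg adjustment at 0.05. CPM was computed on scaled library sizes. The script was tested on simulated counts. The alternatives were DESeq2 1.42.0 size factors and test, library totals alone, limma-voom 3.58.1, no filter or a CPM of 1 in 6 libraries, a replicate block, each library left out, knockout 5 and 6 left out alone or together with control 6, and 4 summed sets; a fit without Rn45s and lengths from all exons were added after the data were seen.

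Some genes are not reported here, singly or in the plots, and remain in the counts. Library values are given for those past the test or with a mean of at least 10 CPM in either group, and up to 3 called genes with the smallest adjusted p are named from each pathway list. Genes of the lists named beyond this rule, such as Meis2, Aldh1a1, Aldh1a3, Rdh10, Foxf1, Acta2, Tagln, Col1a1, Krt20, Acta1 and Lyz2, were chosen after their values were seen. The members and lists were chosen with earlier results of these data known. Transcript lengths come from a mouse annotation of GRCm38 that may differ from the authors' own, and promoter sequences from RefSeq. Intervals and limits cover counting error only.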

Additional observations from a re-analysis of the deposited data

Results flagged for a closer look

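In the control group, control 6 lay far from the other 5 libraries in 4 of the 38 groups examined (19 genes in 2 genotypes), by a test of the gap between an extreme library and its nearest neighbour that chance passes in about 1 in 20 groups. Control 6 was lowest for Tnfrsf1a at 54.88 CPM, lowest for Hoxb9 at 29.44 CPM, lowest for Hoxd8 at 15.33 CPM and highest for Hoxb3 at 22.77 CPM. No knockout group had such a library. The test looks at a single extreme library and cannot flag 2 libraries that lie apart together. Knockout 5 and 6 did so for Hoxc11, at 6.54 and 7.04 CPM, against 1.74 to 2.41 CPM in knockout 1 to 4.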

How the results depend on the processing

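Over the 22 alternative fits other than the 4 summed sets, the 13 called Hox genes kept their direction in all 286 results and stayed past the test in 244; Hoxa3, Hoxa5, Hoxa9, Hoxa10, Hoxb9 and Hoxc13 did so in every one. Leaving out 1 library at a time gave 8 to 14 Hox genes called higher and 1 to 4 called lower. The count of 1 lower arose without knockout 4, control 3, control 4 or control 5, and the cause was not tested. For all genes, these fits called 2125 to 3075 higher and 2246 to 2960 lower. Without knockout 5, knockout 6 and control 6, 4310 of all genes were called higher and 4510 lower. With the 4 summed sets, edgeR called 0 Hox genes higher, 0 lower and 0 of all genes in either direction, and Tnfrsf1a differed by -0.59 (adjusted p = 0.633), with only 2 samples per genotype. Library totals alone moved the median of all genes to -0.04. In that fit edgeR called 7 Hox genes higher and 4 lower, beside 17.5% and 24.6% of all genes.

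Of the 5 Hox genes not past the test that averaged at least 10 CPM in a genotype, 4 changed sign; the other 9 not past the test were not followed singly. Hoxb3 was -0.17 in the summed sets. Hoxb4 was 0.0234 without knockout 5 and 6, 0.0557 without these and control 6, and -0.0635 to 0.0130 with 1 library left out. Hoxb8 was 0.0071 with DESeq2 size factors, 0.0024 in the DESeq2 test, 0.0447 without knockout 5 and 6, 0.0606 without these and control 6, and -0.0461 to 0.0388 with 1 library left out. Hoxd13 was -0.0569 on library totals, -0.0376 in limma-voom, -0.0064 with no filter, -0.0233 with the replicate block, -0.15 in the summed sets, and -0.0537 to 0.10 with 1 library left out.

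With the replicate number as a block, edgeR called 8 Hox genes higher and 2 lower, beside 15.1% and 17.1% of all genes, and the calls of Hoxa11, Hoxc11 and Hoxd9 were lost (adjusted p = 0.114, 0.0632 and 0.0636). No pairing by number was seen: deviations of same-numbered libraries correlated at -0.37 to -0.17 for 5 numbers and 0.22 for 1, and 0 knockout libraries correlated best with their own number. These deviations from the group mean include the splits between sets of like libraries, so the check could miss a pairing.

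The share of paralogues 9 to 13 was 56.4% in knockout 5 and 6 alone, and in control libraries 59.9% without division by length and 60.4% by all exons. The HoxA share without division by length was 38.7% in knockout and 31.5% in control libraries, and it was 32.3% in control 6 alone. Depth limits the 12 untested genes, whose levels lie near a few counts per library.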
